A study of Homo sapiens with 11 samples.

Results

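The genes described here are 10 genes of the myeloid lineage, namely SPI1, CEBPA, CEBPB, CEBPD, MPO, LYZ, CD14, ANPEP, CD33 and CSF3R, read in cell lines of T-cell acute lymphoblastic leukemia (T-ALL). They were chosen by name. Each gene was read from those probe sets of the array whose only gene symbol is that gene, and from the one with the highest mean where there were several. By this rule 9 of the 10 genes, with 15 probe sets, were measured among 19775 genes on the array, and CD33 was not analysed here. The study profiled 11 established T-ALL lines with 1 Affymetrix HG-U133 Plus 2.0 array each, grouped by the activity of NKL homeobox genes, which are developmental transcription factors that act as oncogenes in this leukemia. The NKL-positive lines were PEER, LOUCY, JURKAT, HPB-ALL, CCRF-CEM and ALL-SIL, and the NKL-negative lines were SUP-T1, CML-T1 and the MOLT lines MOLT-16, MOLT-14 and MOLT-4. JURKAT was kept out of the group comparison, following the study's design. The comparison therefore held 5 lines against 5. The labels name no treatment, and each line descends from 1 patient's leukemia. A value belongs to a line, and with 1 array per line its error cannot be estimated.

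Myeloid and T-cells descend from shared progenitors in the bone marrow. The transcription factor PU.1, encoded by SPI1, and the C/EBP factors direct progenitors into granulocytes and monocytes, and the earliest progenitors in the thymus still have myeloid potential until PU.1 is shut off and BCL11B is activated. Leukemias arrested at the stage of early T-cell precursors often carry myeloid surface antigens, and LOUCY is widely used as a line of that type. CML-T1 was established from a T-lymphoid blast crisis of chronic myeloid leukemia and carries a BCR-ABL1 fusion.

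The values are log2 signals after robust multi-array averaging (RMA), which corrects background, gives the arrays a common distribution and merges the probes of each probe set. Array medians lay between 4.63 and 4.76. Probe sets bind with different strength, so a value is set against the same gene in other lines or against the median of its array, and genes are not ranked by it. Of 13 measured T-cell markers, 12 lay above the array median in all 11 lines, CD2 being the exception, and each line had 12 or 13 of them above it. By limma none of the 13 was called between the groups, 6 being higher and 7 lower in the NKL-positive lines. BCL11B read 9.22 in LOUCY, the lowest value, against 10.24 to 11.79 in the other lines, and GATA3 read 12.66 in LOUCY, the highest, against 10.69 to 11.83. CD7 ran between 7.09 in JURKAT and 11.46 in ALL-SIL. The poly-A spike-in transcripts, which are added to the RNA to follow its labelling, had a mean of 3.005 to 3.142 in MOLT-16, HPB-ALL and CML-T1, and of 5.957 to 9.485 in the 8 remaining lines. The spike-ins of 1 NKL-positive line and 2 NKL-negative lines thus read at background, and the part of this split in the results below was not tested except where values are given.

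Most of the myeloid genes were at low values in nearly every line. Above the array median were CEBPB in all lines, CSF3R in most on 1 of its 2 probe sets, CEBPA in 5, and SPI1, LYZ and CEBPD in LOUCY or CML-T1. Of these genes only CEBPB was above the upper quartile in any line. MPO, CD14 and ANPEP lay below the array median in all 11 lines, a position that 21.0% of all genes shared. CEBPB lay above the upper quartile in all 11 lines, and 41.6% of all genes lay above the median in all lines. CSF3R was above the median in 9 lines, CEBPA in 5, LYZ in 2, and SPI1 and CEBPD in 1 each. Together 29 of 99 values were above the array median, or 18 of 88 without CEBPB, and 28 of 99 were below the lower quartile. None of the 9 genes was below the lower quartile in all lines, as 3.99% of all genes were.

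**Figure D1:**
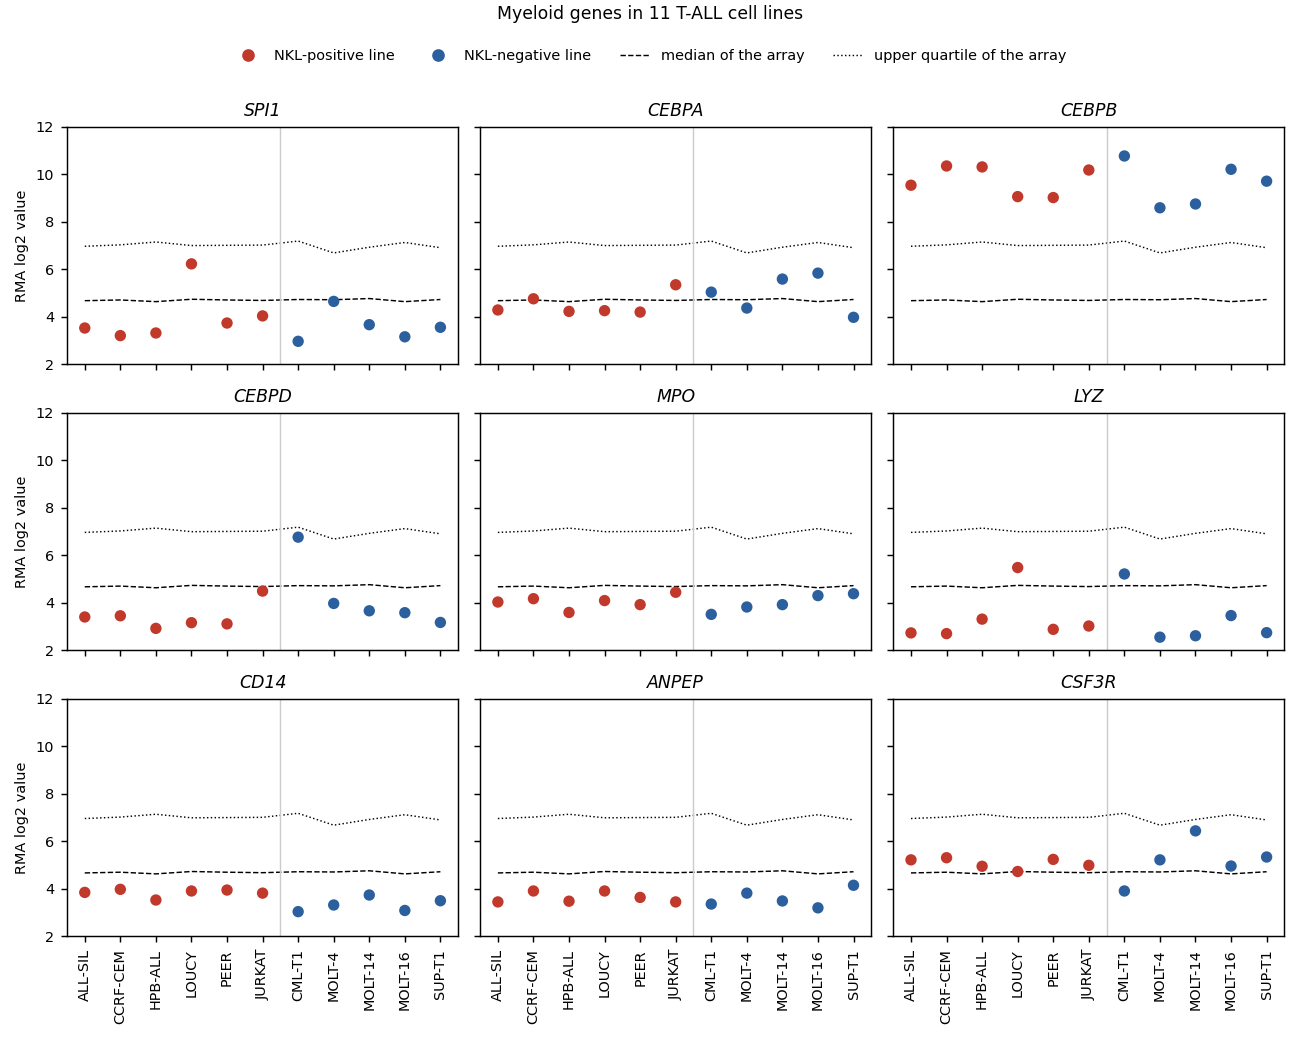
RMA log2 values of the 9 measured myeloid genes (vertical axis) in the 11 T-ALL lines (horizontal axis), 1 array and 1 point per line, NKL-positive lines left and NKL-negative lines right of the grey line, with the median and upper quartile of each array as dashed and dotted lines. SPI1 and LYZ rise above the median in LOUCY, LYZ and CEBPD do so in CML-T1, CEBPB lies above the upper quartile everywhere, and MPO, CD14 and ANPEP stay below the median.

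SPI1 encodes PU.1, the ETS-family factor required for monocytes, granulocytes and B-cells. SPI1 read 6.22 in LOUCY, 3.73 in PEER, 3.52 in ALL-SIL, 3.20 in CCRF-CEM and 3.31 in HPB-ALL, against 2.96 in CML-T1, 3.55 in SUP-T1, 4.64 in MOLT-4, 3.66 in MOLT-14 and 3.15 in MOLT-16. JURKAT read 4.03. LOUCY was the only line above its array median and exceeded the median of the 10 others by 2.69 log2 units, while MOLT-4, the next highest, was 1.11 above the others and just under its own array median. Without LOUCY the lines spanned 2.96 to 4.64. The gene has 1 probe set, so no other reading on the array bears on the value in LOUCY.

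CEBPD encodes C/EBP-delta, which is induced in monocytes by inflammatory signals. CEBPD read 3.16 in LOUCY, 3.11 in PEER, 3.40 in ALL-SIL, 3.45 in CCRF-CEM and 2.92 in HPB-ALL, against 6.76 in CML-T1, 3.17 in SUP-T1, 3.97 in MOLT-4, 3.66 in MOLT-14 and 3.58 in MOLT-16. JURKAT, at 4.49, was the second highest. CML-T1 exceeded the median of the others by 3.34 log2 units, the widest gap among the 9 genes, and was the only line above its array median. The second probe set of CEBPD lay between 2.67 and 3.40 in all lines, read 2.78 in CML-T1 and did not follow the first (r = −0.01 over 11 lines), so that the high value rests on 1 of 2 probe sets.

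LYZ encodes lysozyme, the cell-wall-degrading enzyme of neutrophil and monocyte granules. LYZ read 5.48 in LOUCY, 2.88 in PEER, 2.73 in ALL-SIL, 2.70 in CCRF-CEM and 3.31 in HPB-ALL, against 5.21 in CML-T1, 2.74 in SUP-T1, 2.55 in MOLT-4, 2.61 in MOLT-14 and 3.46 in MOLT-16. JURKAT read 3.02. LOUCY and CML-T1, 1 line of each group, exceeded the median of the others by 2.67 and 2.40 log2 units, and the remaining 9 lines lay below the lower quartile of their arrays. On the second LYZ probe set LOUCY was again the highest at 4.25, whereas CML-T1 was the lowest at 2.88, with the array medians above both.

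A gene was counted as standing out in a line if its value was above the array's median and also exceeded the median of the 10 remaining lines by 2 log2 units or more. By this rule 3 of 9 genes stood out in at least 1 line, against 11.5% of all genes, in 4 of 99 combinations of gene and line. The combinations were SPI1 and LYZ in LOUCY and CEBPD and LYZ in CML-T1. Closest below the limit were CEBPA in MOLT-16 with a gap of 1.51 and CSF3R in MOLT-14 with a gap of 1.34. None of these 4 reached the upper quartile of its array. A limit of 3 log2 units left CEBPD in CML-T1, and a limit of 1 gave 9 combinations. When the probe sets of a gene were averaged, SPI1 in LOUCY was the 1 combination that remained, and among the 8 lines that had spike-in signal, which leave out CML-T1 and its 2 combinations by construction, those of LOUCY gave 2.

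CEBPB encodes C/EBP-beta, a factor of macrophages and of granulopoiesis under stress that is also induced in many other cell types. CEBPB read 9.05 in LOUCY, 9.01 in PEER, 9.53 in ALL-SIL, 10.34 in CCRF-CEM and 10.30 in HPB-ALL, against 10.76 in CML-T1, 9.70 in SUP-T1, 8.58 in MOLT-4, 8.74 in MOLT-14 and 10.20 in MOLT-16. JURKAT read 10.17. The values ran without a clear break, and the groups overlapped between 9.01 and 10.34. The 3 lines with spike-ins at background had 10.20 to 10.76, against 8.58 to 10.34 in the 8 others. Other C/EBP-related genes of the lists, singled out after their values were seen, differed in this respect. CEBPG, a C/EBP family member, read 9.40 to 10.26 in those 3 lines and 7.99 to 8.97 in the 8 others, which is a separation without overlap that 3.09% of all genes showed upward. DDIT3, the stress-induced C/EBP-like factor CHOP, read 8.06 to 9.14 against 6.89 to 8.66, and CEBPE read 3.42 to 7.72 against 4.63 to 6.91, so that both overlapped.

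CEBPA encodes C/EBP-alpha, which commits progenitors to the granulocyte and monocyte lineage. CEBPA read 4.25 in LOUCY, 4.19 in PEER, 4.28 in ALL-SIL, 4.75 in CCRF-CEM and 4.22 in HPB-ALL, against 5.03 in CML-T1, 3.97 in SUP-T1, 4.36 in MOLT-4, 5.58 in MOLT-14 and 5.83 in MOLT-16. JURKAT, an NKL-positive line outside the comparison, read 5.34. The 5 lines above their array medians were CCRF-CEM, JURKAT, CML-T1, MOLT-14 and MOLT-16, and LOUCY, the line with SPI1, was not among them.

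MPO encodes myeloperoxidase, the granule enzyme used to assign leukemias to the myeloid lineage. MPO lay between 3.59 and 4.17 in the 5 compared NKL-positive lines and between 3.51 and 4.38 in the NKL-negative lines, with 4.44 in JURKAT. No line was above its array median, LOUCY at 4.09 and CML-T1 at 3.51 included. The second MPO probe set stayed between 3.02 and 3.82.

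ANPEP encodes the aminopeptidase CD13, a surface antigen of granulocytes and monocytes. ANPEP lay between 3.45 and 3.91 in the 5 compared NKL-positive lines and between 3.20 and 4.15 in the NKL-negative lines, with 3.45 in JURKAT. The other ANPEP probe sets spanned 2.82 to 3.67 and 2.83 to 3.55, so none of the 3 readings exceeded an array median in any line.

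CSF3R encodes the receptor of granulocyte colony-stimulating factor. CSF3R read 4.73 in LOUCY, 5.24 in PEER, 5.22 in ALL-SIL, 5.31 in CCRF-CEM and 4.95 in HPB-ALL, against 3.91 in CML-T1, 5.34 in SUP-T1, 5.22 in MOLT-4, 6.44 in MOLT-14 and 4.96 in MOLT-16. JURKAT read 4.99. The NKL-negative group held both ends of the order, MOLT-14 at the top and CML-T1 at the bottom, and the 9 other lines lay within 4.73 to 5.34. The second CSF3R probe set also had its highest value, 5.04, in MOLT-14 and followed the first (r = 0.78 over 11 lines). It was above the array median in MOLT-14 alone, so the position above the median in most lines rests on 1 of 2 probe sets.

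CD14 encodes the co-receptor for bacterial lipopolysaccharide on monocytes. CD14 read 3.91 in LOUCY, 3.95 in PEER, 3.85 in ALL-SIL, 3.98 in CCRF-CEM and 3.53 in HPB-ALL, against 3.04 in CML-T1, 3.50 in SUP-T1, 3.32 in MOLT-4, 3.74 in MOLT-14 and 3.09 in MOLT-16. JURKAT read 3.82. In the NKL-positive group 4 of the 5 lines were above every NKL-negative line, HPB-ALL overlapped with MOLT-14, and all of these values were below the array medians.

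CD14 and CSF3R are shown with the 250 bases upstream of an annotated start. Of the measured genes, ANPEP, CEBPA, CEBPB, CD14 and CSF3R had windows searched, from the RefSeq table of GRCh38.p14. Among these, CD14 and CSF3R alone hold the letters of a PU.1 or a C/EBP motif. SPI1, LYZ, MPO and CEBPD were not searched. Capitals mark matches to GAGGAA, the core bound by PU.1, and to TTNCNNAA, a C/EBP motif, searched on both strands. Of 35116 such windows 23.6% hold the first and 33.2% the second. Both windows are written 5′ to 3′ on the strand of the gene, which is the minus strand, at chr5:140633176-140633425 for CD14 and at chr1:36483315-36483564 for CSF3R.
CD14: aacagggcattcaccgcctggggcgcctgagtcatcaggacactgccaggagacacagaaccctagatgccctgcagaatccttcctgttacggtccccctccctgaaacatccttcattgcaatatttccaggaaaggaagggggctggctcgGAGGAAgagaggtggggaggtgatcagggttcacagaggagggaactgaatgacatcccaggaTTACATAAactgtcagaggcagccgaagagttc
CSF3R: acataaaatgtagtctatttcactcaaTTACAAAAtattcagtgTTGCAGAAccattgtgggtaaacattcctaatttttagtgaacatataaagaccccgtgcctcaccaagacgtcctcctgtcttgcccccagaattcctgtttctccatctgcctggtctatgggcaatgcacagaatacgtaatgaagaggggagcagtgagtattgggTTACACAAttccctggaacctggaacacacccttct
The CD14 window holds GAGGAA 96 bases and TTACATAA 33 bases upstream of the start. The CSF3R window holds C/EBP matches that begin 223, 206 and 36 bases upstream, and the window of a second CSF3R start holds 1 GAGGAA. The windows of ANPEP, CEBPA and CEBPB hold neither set of letters. A match is a description of these letters and no site of binding.

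The comparison of the NKL groups asked whether NKL homeobox gene activity goes along with the myeloid genes. None of the 9 genes differed between the groups at an adjusted p under 0.05 in limma, where 5 of 54613 probe sets (0.00916%), all lower in NKL-positive lines, passed over the whole array, or 0.0152% of genes. By mean difference 5 of the 9 genes were higher and 4 lower in the NKL-positive lines, with a median difference of 0.05 log2 units against −0.002 over all genes. None of the 9 had groups without overlap, a pattern found upward in 0.379% and downward in 0.526% of all genes.

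CD14 averaged 3.84 ± 0.18 in NKL-positive lines and 3.34 ± 0.29 in NKL-negative ones (SD, n = 5 each). Its difference of 0.51 log2 units had a 95% interval of 0.08 to 0.93 and was, in the limma model fitted across all genes, the 1 among the 9 with an unadjusted p under 0.05 (limma adjusted p = 0.981), as in 5.26% of all genes, 2.63% upward and 2.63% downward. The spike-in split moved with it, since CD14 read 3.04 to 3.53 in the 3 lines without and 3.32 to 3.98 in the 8 lines with spike-in signal. Among the 7 compared lines that had this signal, 4 NKL-positive and 3 NKL-negative, every NKL-positive line read higher, which 3.01% of all genes showed, and the difference was 0.40 (limma adjusted p = 0.684).

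The widest mean differences belonged to CEBPD and CEBPA, both lower in the NKL-positive lines. CEBPD averaged 3.21 ± 0.22 in NKL-positive lines and 4.23 ± 1.44 in NKL-negative ones (SD, n = 5 each), a difference of −1.02 (95% interval −2.31 to 0.27, limma adjusted p = 0.981). Without CML-T1 the difference of CEBPD was −0.39, so this 1 line set most of its size. CEBPA averaged 4.34 ± 0.23 in NKL-positive lines and 4.95 ± 0.79 in NKL-negative ones, a difference of −0.62 (95% interval −1.39 to 0.15, limma adjusted p = 0.981). The 5 NKL-positive lines covered 4.19 to 4.75, below the 5.34 of JURKAT, which was not compared. In the 7 compared lines with spike-in signal the differences were −0.27 for CEBPA and −0.32 for CEBPD.

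The differences of SPI1 and LYZ changed sign with single lines. SPI1 averaged 3.996 ± 1.26 in NKL-positive lines and 3.59 ± 0.65 in NKL-negative ones, a difference of 0.40 (95% interval −0.85 to 1.66) that was −0.15 without LOUCY and 0.67 without MOLT-4. LYZ averaged 3.42 ± 1.18 in NKL-positive lines and 3.31 ± 1.12 in NKL-negative ones, a difference of 0.11 (95% interval −1.33 to 1.54) that was −0.41 without LOUCY and 0.58 without CML-T1. In the 7 compared lines with spike-in signal the differences were 0.22 for SPI1 and 0.81 for LYZ. These intervals leave room for differences of more than 1 log2 unit, so that 5 lines a group do not show the groups to be alike.

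CEBPB averaged 9.65 ± 0.65 in NKL-positive lines and 9.60 ± 0.94 in NKL-negative ones, a difference of 0.05 (95% interval −0.97 to 1.07), and in the 7 compared lines with spike-in signal of 0.48. CSF3R averaged 5.09 ± 0.24 in NKL-positive lines and 5.17 ± 0.91 in NKL-negative ones, a difference of −0.08 (95% interval −0.95 to 0.78) that was −0.40 without CML-T1, 0.23 without MOLT-14 and −0.54 in the same 7 lines. MPO and ANPEP had the narrowest intervals apart from CD14. MPO differed by −0.03 (95% interval −0.50 to 0.45) and ANPEP by 0.07 (95% interval −0.41 to 0.56).

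**Figure D2:**
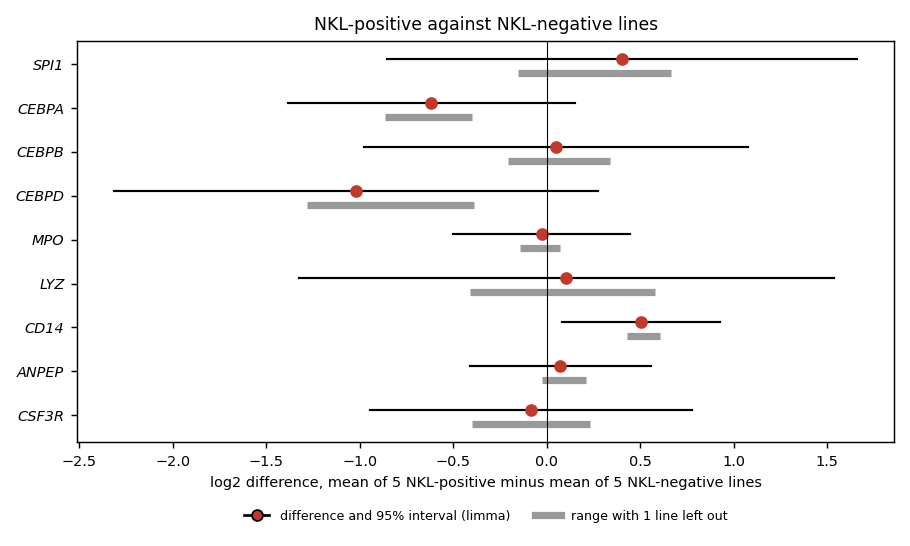
Difference of the NKL-positive minus the NKL-negative mean in log2 units (horizontal axis) for the 9 myeloid genes, 5 lines per group, with the 95% interval from limma as a black line and the range of the difference over leaving out each line in turn as a grey bar. The interval of CD14, from 0.08 to 0.93, is the only one clear of 0 before adjustment, and the grey bars cross 0 for all genes but CEBPA, CEBPD and CD14.

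The members were also placed among 78 measured genes of 5 lists around them, namely further myeloid transcription factors, granule proteins, monocyte and macrophage genes, myeloid cytokine receptors and other myeloid surface antigens. None of the 78 was called between the groups by limma, as 0.0152% of all genes were. An unadjusted limma p under 0.05 was found for 4 (5.13%), close to the 5.26% of all genes. In the NKL-positive lines 38 were higher and 40 lower, with a median difference of −0.03. Standing out in at least 1 line were 19 of the 78 genes (24.4%), against 11.5% of all genes. Among markers of other lineages it was 3 of 13 for T-cells (23.1%) and 4 of 7 for B-cells (57.1%). For NK-cells it was 2 of 4, and for erythroid cells and megakaryocytes 1 of 7 (14.3%). A share above that of all genes was thus not particular to the myeloid lists. Of the 78, 12 genes (15.4%) were lower in all 3 lines with spike-ins at background than in any other line, against 9.29% of all genes. In the other direction 1 gene, CEBPG (1.28%), was higher in all 3, against 3.09% of all genes.

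**Figure D3:**
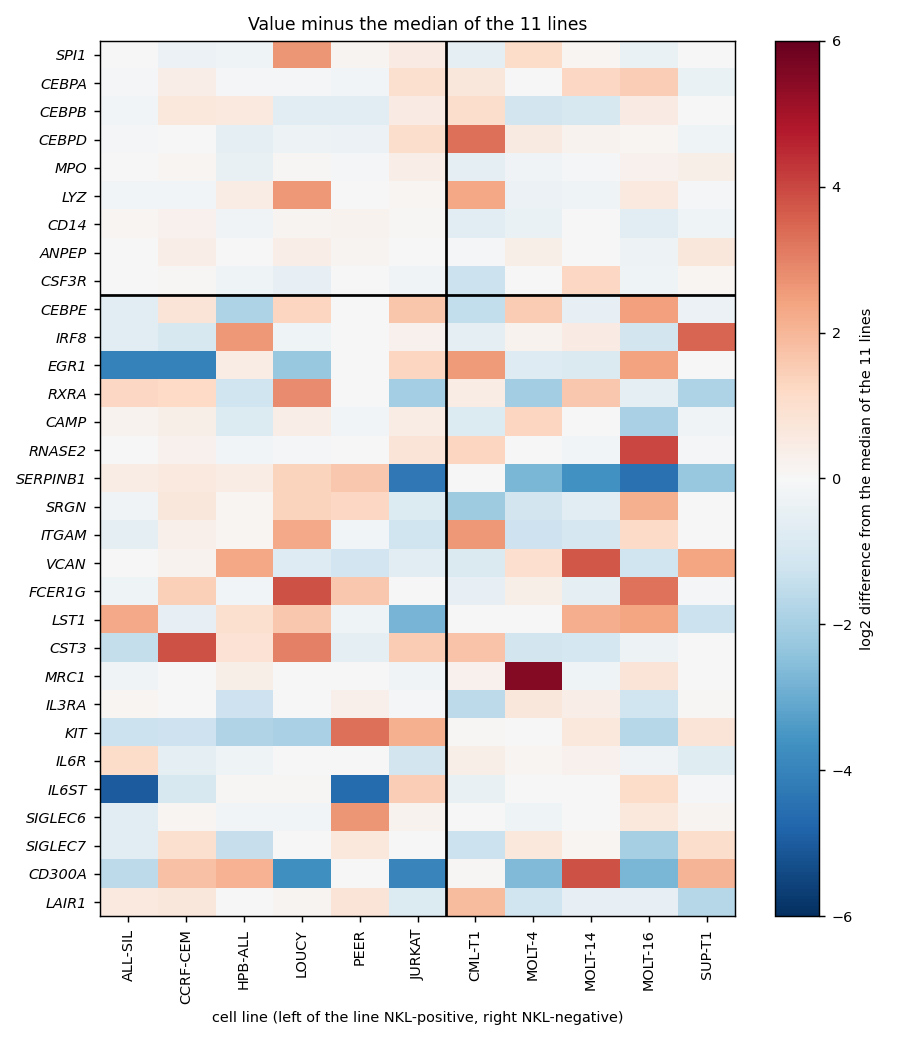
Log2 difference of each gene from its median over the 11 lines (colour, red above and blue below) for the 9 myeloid genes above the horizontal line and for the named genes of the 5 lists below it, with NKL-positive lines left and NKL-negative lines right of the vertical line. The high values of different genes lie in different lines, such as SPI1, LYZ and FCER1G in LOUCY, CEBPD and LYZ in CML-T1, RNASE2 in MOLT-16 and MRC1 in MOLT-4.

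Of the 15 measured myeloid transcription factors, 5 were higher and 10 lower in the NKL-positive lines, with a median difference of −0.13, and 6 stood out in some line. IRF8, a factor of monocytes and dendritic cells that acts with PU.1, read 8.19 in HPB-ALL and 9.09 in SUP-T1, against 4.48 to 6.08 in the other lines, LOUCY among them. CEBPE, the C/EBP factor of late granulocytes, read highest in MOLT-16 at 7.72 and lowest in HPB-ALL at 3.42. EGR1, an immediate early factor linked to monocyte differentiation, read 10.63 in CML-T1 and 10.50 in MOLT-16 but 4.03 in ALL-SIL and 4.04 in CCRF-CEM, and its group difference of −2.66 (SE 1.07) had a limma adjusted p of 0.981. RXRA, a retinoid receptor, read 9.20 in LOUCY, its highest value. ZEB2 stood out in CML-T1 at 6.12 and SPIB, an ETS factor related to PU.1, in HPB-ALL at 7.44, where SPI1 itself read 3.31.

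The granule proteins around MPO and LYZ comprised 18 measured genes, 7 higher and 11 lower in the NKL-positive lines, with a median difference of −0.05. Of the azurophil granule proteins next to MPO, ELANE ran between 3.20 and 4.28, PRTN3 between 2.83 and 3.50 and AZU1 between 2.96 and 4.12. CTSG, the granule protease cathepsin G, ran higher, between 4.01 in MOLT-16 and 6.84 in JURKAT, with 6.13 in MOLT-4 and 6.04 in MOLT-14. These 4 genes were singled out after their values were seen. RNASE2, an eosinophil granule ribonuclease, read 7.20 in MOLT-16, against 3.02 to 4.49 elsewhere. SRGN, the granule proteoglycan serglycin that cytotoxic lymphocytes also make, ran between 7.60 and 11.85, again with MOLT-16 highest. CAMP, the antimicrobial peptide cathelicidin, ran between 3.09 and 6.35 and was lower in the 3 lines with spike-ins at background (3.09 to 4.24) than in the 8 others (4.82 to 6.35). SERPINB1, an inhibitor of neutrophil proteases, was the 1 gene of the 78 whose groups did not overlap (1.28%, against 0.379% of all genes upward), with a limma adjusted p of 0.568. It read 8.33 to 9.53 in the 5 compared NKL-positive lines, against 3.40 to 7.90 in the NKL-negative lines, and JURKAT, at 3.6, lay among the NKL-negative values.

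The 22 monocyte and macrophage genes comprised 10 higher and 12 lower in the NKL-positive lines, with a median difference of −0.07. Levels within this list were uneven, and the genes in the next sentences up to AIF1 were singled out after their values were seen. S100A8 ran between 2.92 and 3.49, S100A9 between 2.67 and 4.33, FCGR1A between 2.86 and 3.62, and MNDA between 2.69 and 3.46, and TYROBP reached at most 4.19, all of them below the array medians. AIF1, a calcium-binding protein of macrophages, ran between 9.91 and 12.10. Genes that stood out did so in 1 to 3 lines each. MRC1, the macrophage mannose receptor, read 8.78 in MOLT-4 and 3.02 to 4.01 elsewhere. VCAN, the proteoglycan versican, stood out at 6.79 in HPB-ALL, 8.18 in MOLT-14 and 6.81 in SUP-T1. CST3, cystatin C, stood out at 9.71 in CCRF-CEM and 8.94 in LOUCY, and LST1 ran between 4.59 in JURKAT and 9.74 in MOLT-16.

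The 10 cytokine receptors around CSF3R comprised 6 higher and 4 lower in the NKL-positive lines, with a median difference of 0.07. KIT, the stem cell factor receptor of progenitors and mast cells, stood out at 8.63 in PEER and 7.44 in JURKAT and read 3.38 in LOUCY. IL6ST, the shared signalling chain of the interleukin-6 receptor family, read 2.66 in ALL-SIL and 3.05 in PEER, against 6.71 to 9.11 in the other lines. IL6R ran between 3.40 and 5.58. IL3RA, the interleukin-3 receptor chain, read 3.45 to 3.82 in the 3 lines with spike-ins at background and 4.87 to 5.68 in the 8 others.

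The 13 other surface antigens comprised 10 higher and 3 lower in the NKL-positive lines, with a median difference of 0.26. CD300A, an inhibitory receptor of myeloid and lymphoid cells, had the widest range of the 78 genes, with 11.65 in MOLT-14, 9.89 in HPB-ALL, 9.85 in SUP-T1 and 9.56 in CCRF-CEM but 4.15 in LOUCY and 3.86 in JURKAT. SIGLEC6, of the same sialic acid-binding family as CD33, read 7.89 in PEER and 4.60 to 5.86 elsewhere. SIGLEC7 ran between 3.46 and 6.51, with 3.46 to 4.13 in the 3 lines with spike-ins at background and 4.76 to 6.51 in the 8 others. LAIR1, an inhibitory collagen receptor of leukocytes, read highest in CML-T1 at 10.48.

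By line, the genes of the 5 lists that stood out numbered 1 to 6 of 78. MOLT-16 had 6 (7.69%, against 2.31% of all genes in that line), LOUCY 5 (6.41%, against 2.46%), and HPB-ALL and CML-T1 4 each (5.13%, against 2.57% and 3.34%). ALL-SIL, MOLT-4 and JURKAT had 1 each (1.28%), and JURKAT was the only line in which this share was below that of all genes (1.99%). The 9 myeloid genes had 2 to 4 members above the array median per line, the most in CML-T1 with CEBPA, CEBPB, CEBPD and LYZ, and LOUCY had SPI1, CEBPB and LYZ.

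**Figure D4:**
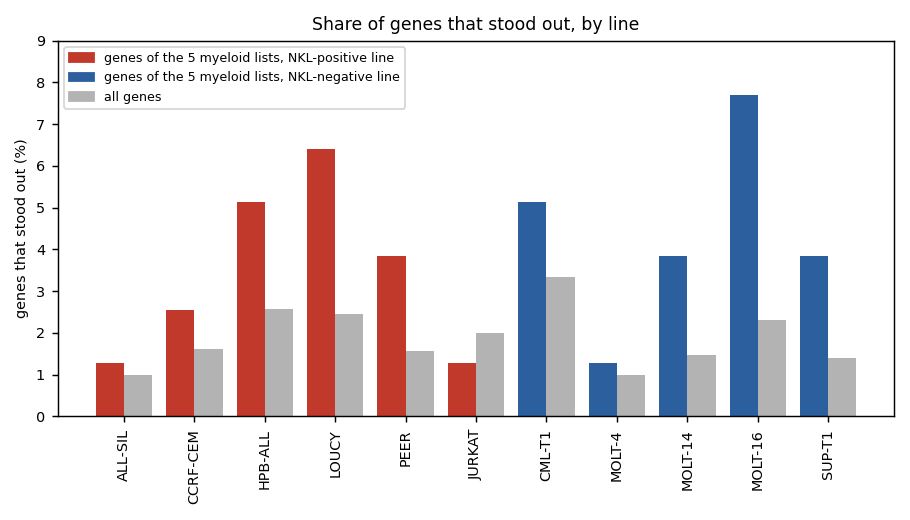
Share of genes in percent (vertical axis) that stood out in each line (horizontal axis), for the 78 genes of the 5 myeloid lists in red (NKL-positive lines) or blue (NKL-negative lines) and for all 19775 genes in grey. The share of the myeloid lists is highest in MOLT-16 at 7.69% and LOUCY at 6.41%, and it is below that of all genes in JURKAT alone.

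LOUCY and CML-T1, the lines in which members stood out, were compared for what else they share. In all, 487 genes stood out in LOUCY and 660 in CML-T1, with 75 in both. Of the genes standing out in LOUCY 15.4% also did so in CML-T1, against 3.34% of all genes. In the other direction it was 11.4%, against 2.46% of all genes in LOUCY. Only 11.5% of all genes stood out in any line, and no other pair of lines was compared. These shares therefore cannot show that the likeness is particular to this pair. Of the 118 listed genes and members 4 stood out in both lines, against 75 of all 19775 genes. The 4 were LYZ, ITGAM, EBF1 and CD79A, and LYZ was among the members by which the pair was chosen. ITGAM, the CD11b integrin chain of monocytes, granulocytes and NK-cells and here singled out after its values were seen, read 6.76 in LOUCY and 7.08 in CML-T1, against 3.26 to 5.64 in the 9 other lines. EBF1, the B-cell specification factor, read 7.63 in both lines, against 2.69 to 5.11, and CD79A, a chain of the B-cell receptor, read 9.25 in LOUCY and 10.12 in CML-T1, against 5.77 to 8.22. In other genes the lines differed. FCER1G, the Fc receptor gamma chain, likewise singled out after its values were seen, read 7.68 in LOUCY and 7.10 in MOLT-16 but 3.36 in CML-T1, and SPI1 read 6.22 in LOUCY and 2.96, the lowest value of all lines, in CML-T1. Of 7 measured B-cell markers, 5 were higher and 2 lower in the NKL-positive lines, and none was called by limma. In LOUCY 3 of the 7 stood out, against 2.46% of all genes, and in CML-T1 3, against 3.34%. CD79B stood out at 8.25 in LOUCY and 7.46 in PEER, and read 6.64 in CML-T1 and 4.19 in JURKAT. Its group difference of 2.19 (SE 0.59) had a limma adjusted p of 0.808. MS4A1, the CD20 antigen, read 6.54 in CML-T1 and 3.38 in LOUCY. PAX5, CD22 and BLNK stood out in neither line. They read 5.77, 6.24 and 3.16 in LOUCY and 3.73, 4.55 and 3.26 in CML-T1, where PAX5 had its lowest value of all lines.

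For the members with a range of at least 2 log2 units, the genes with the most similar pattern over the 11 lines were looked up among 7179 other genes with such a range. These correlations are descriptions over 11 arrays that share their normalization, and most of them rested on the 1 or 2 lines in which the member was high. For SPI1 they were RSPH1 (r = 0.95), NUTM2B (r = 0.92) and CECR7 (r = 0.92), which read 0.42, 0.56 and 0.67 without LOUCY and MOLT-4. For CEBPD they were ADGRV1 (r = 0.97), MKX (r = 0.95) and PPP2R2C (r = 0.95), each with its highest value in CML-T1, at 7.95, 8.36 and 8.02, and with r = 0.70, 0.57 and 0.49 without CML-T1 and JURKAT. For LYZ the closest was CYSLTR1, a leukotriene receptor (r = 0.935), at 7.49 in LOUCY and 9.20 in CML-T1 against 2.96 to 3.85 in the other lines, followed by VGLL3 and TMEM273 (r = 0.92 each), and without these 2 lines the correlations were 0.33, 0.31 and −0.17.

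CEBPB was the member whose similar genes did not rest on the outermost lines. ERV3-1, PCK2 and KHNYN had r = 0.92, 0.92 and 0.91, and 0.90, 0.87 and 0.88 without MOLT-4 and CML-T1. PCK2, the mitochondrial phosphoenolpyruvate carboxykinase, read 9.15 in CML-T1, 8.68 in MOLT-16 and 8.67 in HPB-ALL, its 3 highest values and the 3 lines with spike-ins at background. For CSF3R they were SLURP1 (r = 0.90), AIRE (r = 0.89) and DMBT1 (r = 0.89), with 0.75, 0.55 and 0.39 without CML-T1 and MOLT-14. Among the 9 members themselves, over 36 pairs, the highest correlation was that of CEBPD with LYZ (r = 0.45, and −0.38 without CML-T1 and JURKAT), and the lowest that of LYZ with CSF3R (r = −0.73, and −0.58 without LOUCY and CML-T1). CEBPA and CEBPD had r = 0.39 and, by rank, rho = 0.75, with r = 0.71 without MOLT-16 and MOLT-14.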

How the data were processed

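Total RNA of 11 T-ALL cell lines was hybridized to HG-U133 Plus 2.0 arrays, 1 array per line, at an institute of pathology that provided the data to the authors. The authors deposited log2 values after RMA background correction, quantile normalization and summary per probe set; tool versions were not given in the sources used here. The study's methods also describe ratios to the sample mean, a step that the deposited values, with array medians of 4.63 to 4.76, do not show. These log2 values were used as deposited. After removal of 62 control probe sets, 54613 remained, of which 41091 carried 1 gene symbol, 1801 several and 11721 none. No detection calls were used, and precision is limited by the number of arrays.

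Groups were compared with limma 3.58.1 in R 4.3.3 (lmFit, eBayes, no covariate), with Benjamini-Hochberg adjustment over all probe sets at a threshold of 0.05, after the procedure was tested on simulated data. Separate lines are the replicates. No paired analysis was possible because no line is in both groups. The members and lists (5 myeloid, and T-cell, B-cell, NK-cell and erythroid and megakaryocyte markers) were chosen with earlier results of these data known. Named were the members, the 4 genes of each list with the widest range, BCL11B, GATA3 and TCF7, and 3 similar genes per variable member; others are marked as chosen afterwards or illustrate a count. CD33, TCF7 and some other listed genes were not analysed here. Alternatives covered the lines compared, the poly-A split, scaling, filters, variance model, weights and probe sets. The stand-out rule in the 8 lines with spike-in signal was added after seeing the data.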

Additional observations from a re-analysis of the deposited data

Results flagged for a closer look

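A sample was marked where its gap to the nearest line of its NKL group was wide for the range of that group (Dixon's ratio, groups of 6 NKL-positive or 5 NKL-negative lines). Of 94 groups over 47 named genes 19 were marked, and chance marks about 1 in 20 for genes not chosen by their values. Many of these genes were named for a wide range over the same lines. The count therefore cannot be set against that rate.

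Among the myeloid genes, SPI1 in LOUCY (6.22, other NKL-positive lines 3.20 to 4.03), LYZ in LOUCY (5.48, others 2.70 to 3.31), CEBPD in JURKAT (4.49, others 2.92 to 3.45) and CEBPD in CML-T1 (6.76, other NKL-negative lines 3.17 to 3.97) lay high. CD14 in HPB-ALL lay low (3.53, other NKL-positive lines 3.82 to 3.98).

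Of the genes around them, IRF8 in HPB-ALL (8.19, others 4.64 to 5.86), SIGLEC6 in PEER (7.89, others 4.60 to 5.44) and MRC1 in MOLT-4 (8.78, others 3.02 to 4.01) lay high. SERPINB1 in JURKAT (3.6, others 8.33 to 9.53) and IL3RA in HPB-ALL (3.77, others 4.87 to 5.29) lay low.

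Of the T-cell markers, PTCRA in HPB-ALL lay high (8.56, others 6.71 to 6.96), and TRBC1 in ALL-SIL (10.03, others 12.96 to 13.89), BCL11B in LOUCY (9.22, others 11.03 to 11.69) and BCL11B in MOLT-16 (10.24, others 11.36 to 11.79) lay low. Of the other lineage markers, CD79A in LOUCY (9.25, others 6.50 to 7.45), MS4A1 in HPB-ALL (4.54, others 3.38 to 3.71), GNLY in CCRF-CEM (7.30, others 3.53 to 4.39) and GNLY in MOLT-16 (10.38, others 3.73 to 5.27) lay high, and GP9 in HPB-ALL lay low (4.49, others 5.44 to 5.74). Of these genes IL3RA, MS4A1 and GP9 separated the 3 lines with poly-A controls at background from the 8 others, and the part of that split was not tested.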

How the results depend on the processing

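None of the 9 myeloid genes was called by limma under any of 20 alternatives, 10 of which left out a line, and the smallest adjusted p was 0.684. Over the whole array these alternatives called only 0 to 13 probe sets, or genes where probe sets were averaged. The absence of calls among 9 genes therefore says little about these genes in particular. The filter above the median of mean values left CEBPB and CSF3R to test. The combinations that stood out numbered 4, against 9 at a gap of 1 log2 unit, 1 at a gap of 3, 0 above the 75th percentile, 1 with probe sets averaged, and 2 in the 8 lines with poly-A controls, which leave out CML-T1 and its 2 combinations by construction. Of 173 differences under the alternatives 25 changed sign, 15 of them when a line was left out. The ranges over leaving out each line were −0.027 to 0.21 for ANPEP, −0.15 to 0.0725 for MPO, −0.15 to 0.67 for SPI1, −0.20 to 0.34 for CEBPB, −0.41 to 0.58 for LYZ and −0.40 to 0.23 for CSF3R, while CEBPA (−0.86 to −0.40), CEBPD (−1.28 to −0.39) and CD14 (0.43 to 0.61) kept their sign.

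Other sign changes concerned differences near 0, and the cause was not tested. MPO turned to 0.054 with all 11 lines, 0.0125 in the lines with poly-A controls and 0.0021 with array weights. ANPEP turned to −0.0106 with a term for the poly-A split, −0.0925 in the lines with poly-A controls, −0.016 with a floor at the 25th percentile and −0.0773 with probe sets averaged. CEBPB turned to −0.0106 after quantile normalization, LYZ to −0.008 with the floor, and CSF3R to 0.021 with probe sets averaged.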

Other observations

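Further lineages were read in the same lines. Of 7 measured erythroid and megakaryocyte markers 1 stood out, ITGA2B, the platelet integrin chain CD41, at 7.86 in LOUCY against 3.59 to 5.83 in the other lines. None of the 7 was called between the NKL groups by limma, 6 being higher and 1 lower in the NKL-positive lines. GATA1 ran between 3.40 and 6.28, GP9 between 4.01 and 5.74 and HBB between 4.24 and 5.92, and ITGA2B (3.59 to 4.54 against 4.81 to 7.86), GATA1 and GP9 were lower in the 3 lines with poly-A controls at background than in the 8 others, as 9.29% of all genes were.

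Of 4 NK-cell markers 2 stood out, in ALL-SIL, CCRF-CEM or MOLT-16. NKG7, a protein of cytotoxic granules, read 10.32 in ALL-SIL and 11.41 in MOLT-16, and GNLY, the granule protein granulysin, read 7.30 in CCRF-CEM and 10.38 in MOLT-16. NCAM1 ran between 3.76 and 5.33 and was lowest in MOLT-16. KLRD1 ran between 2.92 and 4.78 and was highest in MOLT-16. MOLT-16 thus held high values of GNLY and NKG7 beside those of SRGN, FCER1G and RNASE2. None of the 4 was called between the groups by limma.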
